A study of Glycine max with 6 samples.

Results

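Expression of 8 soybean genes was followed from the making of myo-inositol to its use in raffinose and in phytate. They are 4 myo-inositol phosphate synthases (MIPS), the raffinose synthases RS2 and RS3, and 2 phytate transporters of the multidrug resistance-associated protein (MRP) type. The genes were chosen by their IDs, among 56044 gene models in the deposited table, with earlier results of these data known; the rule itself uses no measured value. The table gives IDs without gene names, and matching them to RefSeq's gene list for Glycine_max_v4.0 gave 0 hits, so the enzyme names are those of the selection and were not checked against an annotation or a sequence. For the same reason root markers and the level of GmPHD6 itself were not analysed here.

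RNA came from hairy roots of soybean (Glycine max) strain KF1, which are roots that emerge after a stem is injected with Agrobacterium rhizogenes. There were 3 groups of 2 libraries: roots made with K599 bacteria carrying a GmPHD6 overexpression construct, roots made with K599 carrying a GmPHD6 RNAi construct, and K599 control roots, whose genotype is labelled wild type. All groups were kept at 28 °C with the light on for 16 h and off for 8 h and injected at a height of 2 cm, and the roots collected measured 2 to 10 cm. Neither the promoter of each construct nor whether a library came from 1 plant or several is given in the labels, nor is it said whether the control bacteria carried an empty vector. GmPHD6 belongs to the Alfin-like family of PHD finger proteins, and the submitters looked for genes that are higher with overexpression and lower with RNAi.

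MIPS turns glucose 6-phosphate into inositol phosphate, the committed step toward myo-inositol. Galactinol, made from myo-inositol and UDP-galactose, gives its galactose to sucrose when raffinose synthase makes raffinose, a sugar that builds up in soybean seeds and in plants under drought or cold. Inositol phosphates are also phosphorylated further to phytate, the phosphate store of seeds, which MRP-type ABC transporters are thought to load into vacuoles. Soybean descends from an ancient genome duplication, and many of its genes exist as pairs of similar copies.

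Each group is represented by 1 FPKM value per gene (a fragment count adjusted for transcript length and sequencing depth), read as made by the authors from both libraries and flanked by their lower and upper bounds. Values therefore carry no SD, and no difference below has a replicate check. If the bounds lie 2 SD from the value, the overexpression column holds 14651645 fragments per library, the RNAi column 15340500 and the control column 15226733. FPKM summed to 833516 over the overexpression column, 753999 over RNAi and 676881 over control. Gene models on chromosome 13 between 3 and 4.3 Mb held 19.3%, 2.92% and 2.28% of these sums in the same order. Of the 8 genes, 6 carried an OK flag throughout and reached 1 FPKM somewhere, as did 33291 genes of the table. Glyma.06G179200 (RS2) and Glyma.08G138200 (MIPS) stayed under 1 FPKM in every column and are described by their levels.

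**Figure D1:**
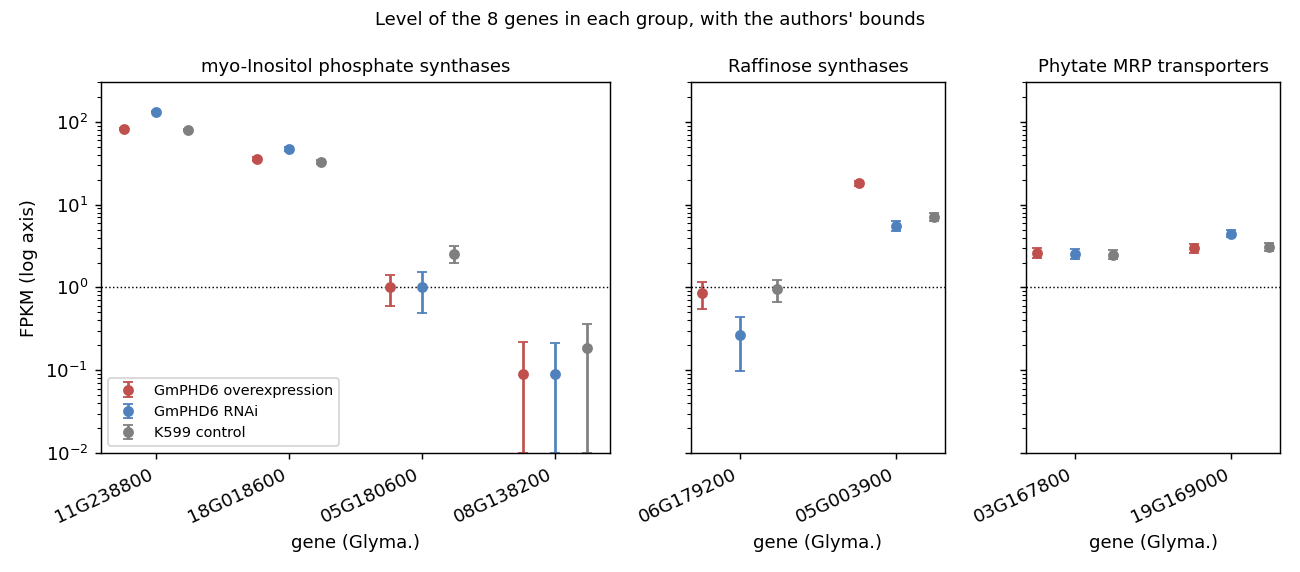
FPKM on a log axis for the 8 genes in GmPHD6 overexpression (red), GmPHD6 RNAi (blue) and K599 control roots (grey); bars are the authors' bounds, bars that reach the lower edge end below 0.01 FPKM, and the dotted line is the 1 FPKM limit of the filter. MIPS genes ran from 132 FPKM at Glyma.11G238800 with RNAi to under 0.2 FPKM at Glyma.08G138200 in each group, and RS3 (Glyma.05G003900) stood at 18.1 FPKM with overexpression against 7.18 FPKM in control.

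The most abundant gene of the set was the MIPS gene Glyma.11G238800 on chromosome 11 (33319225 to 33322244, annotation Wm82.a2.v1). It stood at 82.1 FPKM with overexpression (bounds 78.9 to 85.4), 132 FPKM with RNAi (129 to 136) and 79.5 FPKM in control (76.7 to 82.4). The RNAi bounds lay above both others, and those of overexpression and control overlapped. Its log2(FPKM + 1) difference was 0.73 for RNAi against control, a 1.67-fold higher FPKM, and 0.05 for overexpression against control. After quantile normalization the RNAi difference was 0.44. The RNAi difference as deposited did not reach the 2-fold rule used here, which asks for a log2(FPKM + 1) difference of at least 1 and bounds that do not overlap. For RNAi against control, 19.2% of all tested genes had a difference larger in size than Glyma.11G238800. More FPKM in bulk roots may reflect more cells that express a gene or more RNA per cell, which cannot be told apart.

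Glyma.18G018600, a MIPS gene on chromosome 18 (1365144 to 1368075), had the next level. Its values were 35.9 FPKM with overexpression (33.6 to 38.1), 47.0 FPKM with RNAi (44.4 to 49.6) and 32.6 FPKM in control (30.7 to 34.6). RNAi was again apart from the other columns, with a log2 difference from control of 0.51, or 1.44-fold, while overexpression and control overlapped at a difference of 0.13. After quantile normalization the RNAi difference was 0.34. As deposited, 30.4% of all tested genes had an RNAi difference from control larger in size than Glyma.18G018600. In control, Glyma.11G238800 exceeded the level of 96.1% of tested genes and Glyma.18G018600 that of 88.8%.

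The other MIPS genes were scarce. Glyma.05G180600 on chromosome 5 (36870767 to 36875196) read 1.01 FPKM with overexpression (0.592 to 1.42), 1.02 FPKM with RNAi (0.490 to 1.54) and 2.55 FPKM in control (1.96 to 3.14). Control was the high column, apart from both others, which overlapped each other. The log2(FPKM + 1) differences were -0.82 for overexpression and -0.82 for RNAi, short of the rule, although the FPKM ratios were 0.396 and 0.399. With log2(FPKM + 0.1), which shrinks low genes less, they were -1.26 and -1.25 and passed. Both rest on the same control value and on few fragments per library, about 23.5 in the overexpression column, 14.9 in the RNAi column and 74.4 in the control column. Glyma.08G138200 on chromosome 8 (10592506 to 10597043) read 0.0891 FPKM with overexpression (0 to 0.218), 0.0899 FPKM with RNAi (0 to 0.211) and 0.184 FPKM in control (0.00610 to 0.362). Its bounds overlapped in all columns at 1.92, 2.21 and 4.28 fragments per library in that order, so a difference was not detectable at this depth.

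Summed over the 4 genes, MIPS reached 119 FPKM with overexpression, 181 FPKM with RNAi and 115 FPKM in control, or 1.04 and 1.57 times control for the constructs. These totals use FPKM as deposited and were not recomputed with the columns brought to equal sums. Glyma.11G238800 held 68.96% of the sum with overexpression, 73.4% of it with RNAi and 69.2% of it in control. Glyma.05G180600 held 0.846%, 0.562% and 2.22% in the same order. Between the 2 abundant genes, Glyma.11G238800 over Glyma.18G018600 was 2.29 with overexpression, 2.82 with RNAi and 2.44 in control. The authors' bounds allow 2.07 to 2.54, 2.59 to 3.07 and 2.22 to 2.69 in that order, so RNAi was apart from overexpression and not from control. Pairs were formed within each family, and how similar their sequences are was not examined.

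A raffinose synthase, RS3, gave the only differences past the 2-fold rule among the 6 tested genes. Glyma.05G003900 (RS3) on chromosome 5 (307460 to 312091) stood at 18.1 FPKM with overexpression (16.8 to 19.5), 5.55 FPKM with RNAi (4.82 to 6.27) and 7.18 FPKM in control (6.43 to 7.94). The 3 columns were apart from each other, with overexpression high and RNAi low. Overexpression was higher than control by a log2 difference of 1.22 (2.52-fold in FPKM) and higher than RNAi by 1.55 (3.27-fold), both past the rule. RNAi differed from control by -0.32, a ratio of 0.772, below 2-fold. The order follows the direction the submitters defined for genes downstream of GmPHD6, but only its overexpression side passed the rule. For RNAi against control, 22.8% of all tested genes had a more negative difference than RS3, and 49.3% had a difference larger in size. The share of all genes with this order was not counted. About 719 fragments per library stood behind the overexpression value, 235 behind RNAi and 360 behind control.

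Among all tested genes, 0.631% had a more positive difference than RS3 for overexpression against control, and 2.30% for overexpression against RNAi. Counting both directions, 1.49% and 5.57% had a difference larger in size. The overexpression difference is close enough to the limit for the scaling of the columns to matter. When the columns were brought to equal sums, the median of all genes moved from 0.02 to -0.24 for this comparison and the RS3 difference to 0.97, under the rule though 1.21 above that median. With equal sums counted outside the chromosome 13 stretch, a setting chosen after the data were seen, the RS3 difference was 1.24 and the median -0.0033. Equal sums moved the median of all genes to -0.08 for RNAi against control and to -0.14 for overexpression against RNAi.

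Glyma.06G179200 (RS2) on chromosome 6 (15217418 to 15223877) was the scarcer raffinose synthase in every column. It read 0.847 FPKM with overexpression (0.543 to 1.15), 0.269 FPKM with RNAi (0.0977 to 0.440) and 0.948 FPKM in control (0.664 to 1.23). RNAi was the low column, with bounds below both others, and overexpression and control overlapped. Its FPKM ratio was 0.894 for overexpression over control and 0.283 for RNAi over control. On the log2(FPKM + 1) scale the RNAi difference was only -0.62, and on log2(FPKM + 0.1) it was -1.51, from about 9.88 fragments per library with RNAi and 44.6 in control.

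RS3 exceeded RS2 by 21.4-fold with overexpression, 20.7-fold with RNAi and 7.58-fold in control. The most that the authors' bounds allow is a ratio between 14.6 and 35.8 with overexpression, between 10.97 and 64.2 with RNAi and between 5.22 and 12.0 in control, so overexpression was apart from control and RNAi was not. The higher ratio with overexpression came with a higher RS3, and the one with RNAi came with a lower RS2. Together RS2 and RS3 summed to 18.97 FPKM with overexpression, 5.82 FPKM with RNAi and 8.13 FPKM in control, which is 2.33 and 0.715 times control for the constructs. As for MIPS, these are FPKM as deposited, without scaling of the columns.

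**Figure D2:**
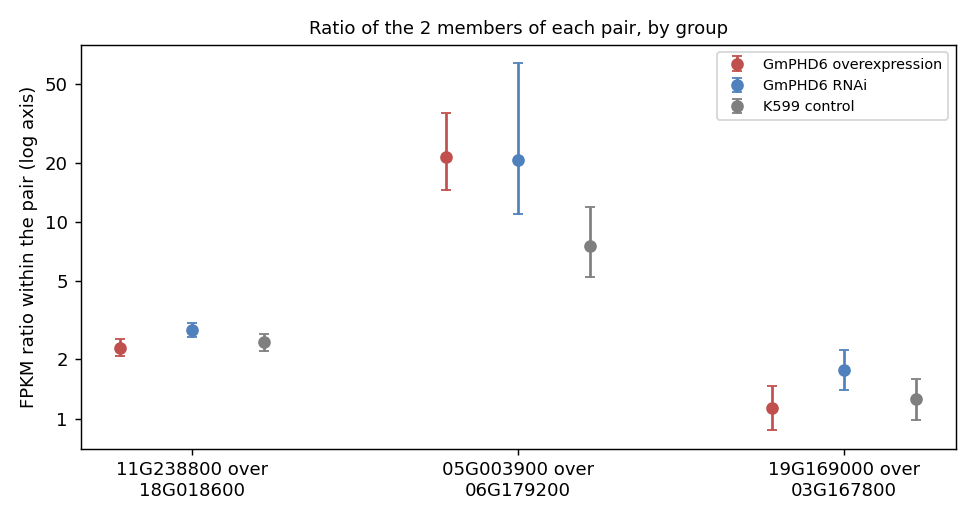
Ratio of FPKM between the members of 3 pairs, on a log axis, in GmPHD6 overexpression (red), GmPHD6 RNAi (blue) and K599 control roots (grey); bars run from the lowest to the highest ratio that the authors' bounds allow. RS3 over RS2 (middle) was 21.4 and 20.7 with the constructs against 7.58 in control, while the MIPS pair (left) stayed between 2.29 and 2.82 and the MRP pair (right) between 1.13 and 1.76.

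The phytate transporters stood between 2.49 and 4.48 FPKM, and neither was past the rule in any comparison. Glyma.03G167800 on chromosome 3 (38202352 to 38210883) read 2.63 FPKM with overexpression (2.28 to 2.98), 2.55 FPKM with RNAi (2.22 to 2.88) and 2.49 FPKM in control (2.18 to 2.80). Its bounds overlapped in every pairing of columns, at differences of 0.06 for overexpression and 0.02 for RNAi against control. Glyma.19G169000 on chromosome 19 (42961518 to 42970330) read 2.98 FPKM with overexpression (2.60 to 3.36), 4.48 FPKM with RNAi (4.03 to 4.93) and 3.12 FPKM in control (2.77 to 3.47). RNAi was apart from both others, with a log2 difference from control of 0.41 or 1.43-fold. Glyma.19G169000 was apart from Glyma.03G167800 with RNAi, at a ratio of 1.76, and overlapped it with overexpression (1.13) and in control (1.25).

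Counted together, 1 of the 6 tested genes was past the 2-fold rule for overexpression against control (RS3, higher), beside 2.22% of all tested genes. For RNAi against control it was 0 of 6 beside 11.2%, and for overexpression against RNAi 1 of 6 (RS3) beside 11.9%. Bounds alone, without a minimum fold, were apart at 2 of 6 genes for overexpression against control, where 22.0% of all tested genes were. They were apart at 5 of 6 for RNAi against control, 3 higher and 2 lower, beside 43.0%, and at 4 of 6 for overexpression against RNAi, beside 41.5%. The comparisons share columns, so these counts are not independent of each other, and with 6 genes none is read as a departure from the background. The median difference of the 6 genes was 0.05 for overexpression against control, 0.22 for RNAi against control and -0.19 for overexpression against RNAi, beside 0.02, 0.05 and -0.02 over all tested genes.

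**Figure D3:**
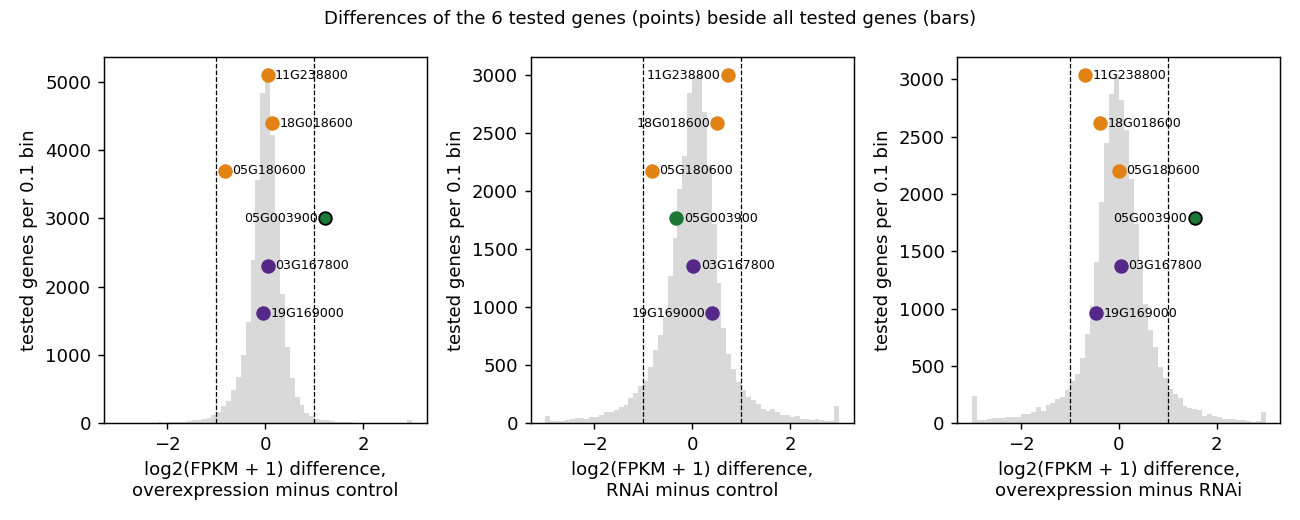
Difference in log2(FPKM + 1) for the 6 genes that passed the filter (points; orange MIPS, green RS3, purple MRP; height has no meaning for points) over the distribution of all tested genes (grey bars, counts per 0.1, with the end bars holding everything beyond 3 in size). Dashed lines mark a difference of 1 in size; only RS3, outlined in black at 1.22 (left) and 1.55 (right), lies past them.

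The order of levels was nearly the same in each group. Glyma.11G238800, Glyma.18G018600 and RS3 took the first 3 places in every column, apart from each other by the authors' bounds. Glyma.19G169000 came next, and its bounds met those of RS3 with RNAi, where RS3 was lowest. In control, Glyma.05G180600 stood between the MRP genes and overlapped both, whereas with either construct it stood below them and apart; with overexpression it overlapped RS2. RS2 and then Glyma.08G138200 closed the order in all groups, and these overlapped only with RNAi.

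The genes next to RS3 on the chromosome were looked at by the same rule. Of the 10 tested genes nearest to it, 5 on each side, 0 were past the rule for overexpression against control, beside 2.22% of all tested genes, with differences from -0.60 to 0.35, and 0 for RNAi against control, from -0.77 to 0.33. Around the other 5 tested members, the only neighbour past the rule with overexpression was 1 of 10 beside Glyma.11G238800, higher than control. With RNAi, where 11.2% of all tested genes were past the rule, 3 of 10 neighbours were lower beside Glyma.11G238800 and 2 of 10 beside Glyma.18G018600, while 3 of 10 were higher beside Glyma.05G180600 and 1 of 10 beside each MRP gene. This look at neighbours was added after the data were seen.

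**Figure D4:**
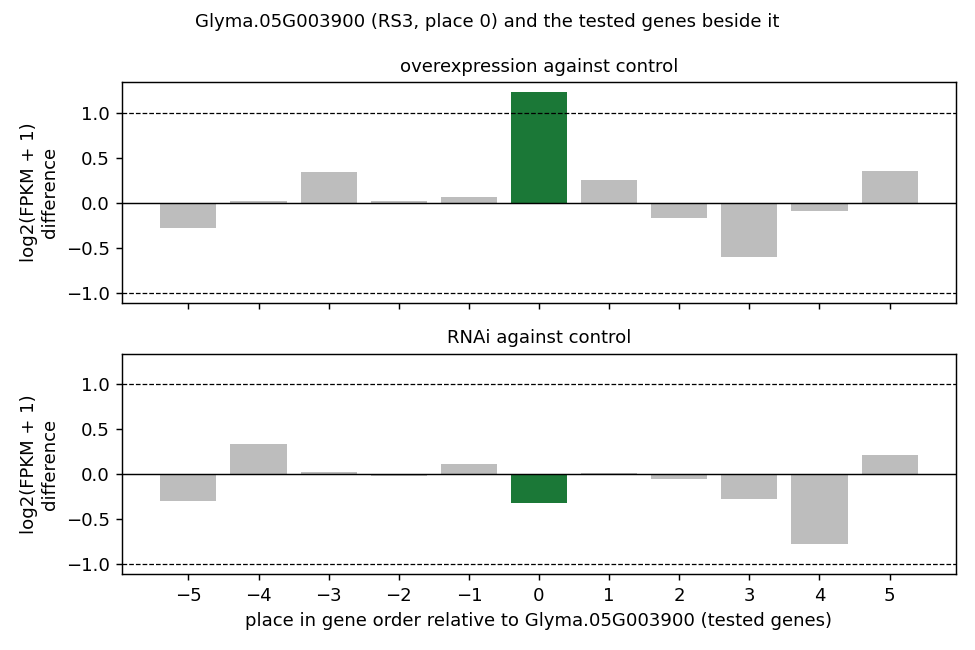
Difference in log2(FPKM + 1) from control for RS3 (green, place 0) and the 5 tested genes on each side in gene order (grey), with overexpression above and RNAi below; dashed lines mark a difference of 1 in size. With overexpression RS3 reached 1.22 and the neighbours lay between -0.60 and 0.35.

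For the most abundant tested gene of each family, the gene with the closest levels in the 3 columns was found by the smallest value of the largest log2(FPKM + 1) difference. For Glyma.11G238800 it was Glyma.20G110800 on chromosome 20 (35299744 to 35301960), at 78.9 FPKM with overexpression, 130 FPKM with RNAi and 82.6 FPKM in control, within 0.06. For RS3 it was Glyma.18G300800 on chromosome 18 (57860161 to 57861657), at 15.9, 4.67 and 8.43 FPKM in that order, within 0.21; no gene lay within 0.1 of RS3. For Glyma.19G169000 it was Glyma.02G290200 on chromosome 2 (46979276 to 47002042), at 2.88, 4.47 and 3.06 FPKM, within 0.04, and 37 genes lay within 0.1. Likeness over 3 pooled columns is a description of level only.

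A further 6 IDs, recalled from published soybean work on these pathways and not paired with names here, were counted by the same rule, and 4 of them passed the filter. Past the rule were 0 of 4 for overexpression against control (2.22% of all tested genes), 1 of 4 for RNAi against control (11.2%) and 0 of 4 for overexpression against RNAi (11.9%). The gene past the rule was Glyma.03G222000, a name given, like those of the next genes, with its values already known. It was lower, at 6.37 FPKM with RNAi (5.43 to 7.31) against 14.1 FPKM in control (12.8 to 15.4), a difference of -1.03. Its overexpression value of 12.2 FPKM (10.8 to 13.5) overlapped control. In the other direction, Glyma.13G127000 stood at 50.7 FPKM with RNAi against 25.8 FPKM in control, and Glyma.14G072200 at 3.36 against 1.27 FPKM. Both had bounds apart, with differences of 0.95 and 0.94 in that order, just short of the rule. The remaining tested ID, Glyma.19G219100, was lower, at 0.431 FPKM with RNAi against 1.57 FPKM in control. Its bounds were apart too, and its difference of -0.84 was also short of the rule. Adding 1 FPKM before the log shrinks differences at levels as low as those of Glyma.14G072200 and Glyma.19G219100. Bounds were apart for RNAi against control at 43.0% of all tested genes.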

How the data were processed

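The authors deposited FPKM values, each with 2 bounds and a flag, in 1 column set per condition. The column headers name the condition and no library, so each set was read as both libraries of a group merged. Per the submitters' processing notes TopHat was used. No source names its version, the quantifier, the level of the bounds, the strand setting, the start convention of coordinates or how fragments of similar gene copies were assigned. Column G6 was read as GmPHD6 overexpression, since RNAi and K599 name the others. No other gene model overlaps the 8 loci.

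Differences are log2(FPKM + 1) of the group named first minus the other, which understates changes of low genes; a gene listed at 0 got no fold. The deposited columns allow no test across libraries, so the rule of size planned for that case was used (Python 3.11.15, pandas 2.3.3). Of genes of 1 to 20 fragments, as computed from the bounds, 70.0% to 71.6% per column matched a sum of whole fragments in 2 libraries to within about 1.2 times the rounding error. Of the 5 member values in that range 0 did, so no value per library was recovered. Named genes are the 8 members, the closest gene for the most abundant member of each family, and the further pathway IDs that passed the filter. Those further IDs were named with their values known, whether or not they were past the rule. The planned description of proteins and promoters was not made, since no ID matched the reference. Members and lists were chosen with earlier results of these data known. Scaling, pseudocount, filter and fold limit were varied.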

Additional observations from a re-analysis of the deposited data

How the results depend on the processing

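No paired analysis was possible because the deposited columns hold 1 value per gene and group and carry no replicate number. Leaving out a library was not possible for the same reason. For overexpression against control, 1 gene (RS3) was past the rule. There were 2 with log2(FPKM + 0.1), log2(FPKM + 0.5), bounds alone or a 1.5-fold limit, each time with Glyma.05G180600 added as lower, and 0 at 4-fold. Of all tested genes, 3.81%, 2.93%, 22.0%, 7.61% and 0.379% passed in these settings in that order, beside 2.22% at first. With columns of equal sum the count stayed at 1, beside 3.81% of all tested genes, but the gene was Glyma.05G180600 in place of RS3. The median of the tested members moved to -0.21 in that setting. For RNAi against control, 0 genes became 1 (Glyma.05G180600) with log2(FPKM + 0.1), log2(FPKM + 0.5), equal sums, or equal sums outside the chromosome 13 stretch, 2 at 1.5-fold and 5 by bounds alone. Of all tested genes, 15.4%, 13.3%, 12.8%, 12.8%, 23.7% and 43.0% passed in these settings in that order, beside 11.2% at first. The members' median for RNAi against control was -0.048 with all 8 genes (no filter) and 0.51 with the 3 genes of at least 5 FPKM on average, since fewer or more genes enter. For overexpression against RNAi, 1 gene became 2 at 1.5-fold, 4 by bounds alone and 0 at 4-fold. All tested genes passed at 24.4%, 41.5% and 3.02% in that order, beside 11.9% at first. The members' median for overexpression against RNAi was -0.0034 without the filter and -0.38 at 5 FPKM. Under a changed filter a single member's difference could neither move nor change sign, since a filter only decides which genes enter. Of 135 recomputed differences of single members, those under a changed filter included, 19 moved by more than a limit taken from the authors' bounds. That limit combined the upper half-widths of both groups on the log2 scale, as the root of their summed squares. Sign changed for 11 of the 135, none of them over 0.134 in size at first. For RNAi against control, Glyma.11G238800 was at 0.58 with equal sums and 0.44 after quantile normalization, and Glyma.18G018600 at 0.37 and 0.34. The authors' bounds narrow with level in the way of counting error, and the spread between roots or plants of a group remains unmeasured for all 8 genes. RS2, Glyma.05G180600 and Glyma.08G138200 rest on few fragments.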
